A study of Rattus norvegicus with 6 samples.

Results

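The genes that make and break down polyamines were examined in spinal cord tissue of SNI-NP rats and sham rats. The set holds 10 of the 22050 genes in the deposited table, taken by gene symbol: *Srm*, *LOC100912604*, *Odc1*, *Amd1*, *Sms*, *Sat1*, *Oaz1*, *Azin1*, *Paox* and *Smox*. The set was chosen with the difference between SNI-NP and sham rats already known, since *Srm* stood out in it. That difference is therefore given for these genes as a description, without a test. All 10 passed the filter on low counts.

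Putrescine, spermidine and spermine are small, positively charged molecules that bind RNA, DNA and ion channels. *Odc1* encodes ornithine decarboxylase, which makes putrescine. *Amd1* encodes the decarboxylase that prepares S-adenosylmethionine as the donor of aminopropyl groups, *Srm* encodes spermidine synthase and *Sms* encodes spermine synthase. *Sat1* encodes the acetyltransferase that opens the way back, *Paox* encodes the oxidase of acetylated polyamines and *Smox* encodes the oxidase that turns spermine into spermidine. The antizyme encoded by *Oaz1* sends ornithine decarboxylase to the proteasome, and the antizyme inhibitor encoded by *Azin1* frees it. In the nervous system polyamines are known as modulators of glutamate receptors and of inwardly rectifying potassium channels, and ornithine decarboxylase is known to respond to axon injury.

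One group (n = 3 libraries) came from rats with spared nerve injury (SNI), a cut of sciatic nerve branches that leaves the sural branch whole, as a model of neuropathic pain (NP). The other group (n = 3 libraries) came from rats with sham surgery. All animals were male Sprague-Dawley rats aged 8 to 10 weeks, with no transgene named. The time after surgery, the segment and the side of the cord are not given for these libraries in the sources used here. Total estimated counts ran from 16670760 to 18151156 per library, so that a count of 0 allowed a level of up to 0.18 CPM (counts per library scaled to a common library size) in the shallowest library, by counting error only. Nothing in the labels says more than that the 3 libraries of a group are replicates, so p-values measure only the spread between these libraries, which may be technical. Where a rat is named below, a single library is meant. The tissue label was checked against marker genes. The myelin gene *Mbp* was at 25760 to 34303 CPM, and the astrocyte gene *Gfap* was at 332.3 to 862.9 CPM. Genes of dorsal root ganglion neurons, such as *Scn10a* (14.3 to 276.6 CPM), were also present. Their summed level over 6 genes was 530.0 to 1110 CPM in sham rats, 1604 and 1124 CPM in SNI-NP replicates 2 and 3, and 186.2 CPM in SNI-NP replicate 1, which stood apart. Of 10 lists of cell markers with 51 genes in the table, 0 had summed levels that separated the groups. Of the 51 single marker genes, 5 were higher and 1 was lower in all SNI-NP rats. An unadjusted edgeR p-value under 0.05 was found for 11 (0 adjusted), 4 of them among the 5 red cell precursor genes. Over all 14426 genes tested, 10.4% were higher and 8.15% lower without overlap. The share with an unadjusted edgeR p-value under 0.05 was 10.8% (0% adjusted). The 5 marker genes higher in all SNI-NP rats were *Prx* of peripheral myelin, *Alas2* and *Slc4a1* of red cell precursors, and *Cdk1* and *Aurkb* of dividing cells. The 1 lower was *Cx3cr1* of microglia.

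The largest difference in the set was in *Srm*, a row for spermidine synthase that has a like row in the table. Added to that row, *Srm* gave overlapping groups and a fitted log2 fold change of 0.10 (standard error 0.13), as described below. The estimated counts of *Srm* (ENSRNOG00000046379) were 11.75, 6.42 and 19.24 after sham surgery, against 245.48, 311.62 and 194 after SNI. The level of *Srm* was 0.729 ± 0.380 CPM (SD, n = 3) after sham surgery, against 14.2 ± 3.03 CPM (SD, n = 3) after SNI, a fitted log2 fold change of 4.29 (standard error, SE, 0.39). Every SNI-NP rat lay far above every sham rat. In bulk tissue, fewer cells of a type and less RNA per cell cannot be told apart, here and in the values that follow.

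A further row of the table, *LOC100912604* (ENSRNOG00000011078), is annotated as spermidine synthase-like. Its estimated counts were 493.25, 515.58 and 554.76 after sham surgery, against 396.52, 292.38 and 310 after SNI. For this row each SNI-NP value was lower than each sham value, with 30.3 ± 1.73 CPM (SD, n = 3) after sham surgery, against 19.0 ± 3.40 CPM (SD, n = 3) after SNI and a fitted log2 fold change of -0.67 (SE 0.15). The group mean of *Srm* was 13.5 CPM higher in SNI-NP rats, and that of *LOC100912604* was 11.3 CPM lower.

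The estimated counts of both rows are not whole in 5 of 6 libraries, whereas those of the other 8 genes are whole in every library. Added together, *Srm* and *LOC100912604* gave 505, 522 and 574 counts after sham surgery, against 642, 604 and 504 after SNI. The sum was whole, within 0.001, in all 6 libraries. Among the 2018 rows with a count that is not whole in at least 1 library, exactly 1 other row completed the fraction of *Srm* to a whole number in all 6 libraries (within 0.005), and this row was *LOC100912604*. In each library the 2 rows thus shared a whole number of counts, and the length implied by count and FPKM was nearly the same for both, 1196 bases for *Srm* and 1244 bases for *LOC100912604*.

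The share of the pair's counts given to *Srm* separated the groups. *Srm* took 2.33%, 1.23% and 3.35% of the pair's counts in sham replicates 1, 2 and 3, with exact 95% binomial intervals from 1.23% to 4.11%, 0.423% to 2.48% and 2% to 5.12%. In SNI-NP replicates 1, 2 and 3 it took 38.2%, 51.6% and 38.5%, with intervals from 34.4% to 42.0%, 47.6% to 55.7% and 34.2% to 42.9%. These intervals cover counting error only and not the uncertainty of dividing a shared read. The mean share was 2.30% ± 1.06 (SD, n = 3) after sham surgery, against 42.8% ± 7.64 (SD, n = 3) after SNI. The summed level of the pair was 31.0 ± 2.10 CPM (SD, n = 3) after sham surgery, against 33.2 ± 3.87 CPM (SD, n = 3) after SNI, a fitted log2 fold change of 0.10 (SE 0.13). The groups overlapped for the sum, since SNI-NP replicate 3 had the lowest value of all 6 rats and SNI-NP replicate 1 the highest. What sets the division of reads was not tested.

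**Figure D1:**
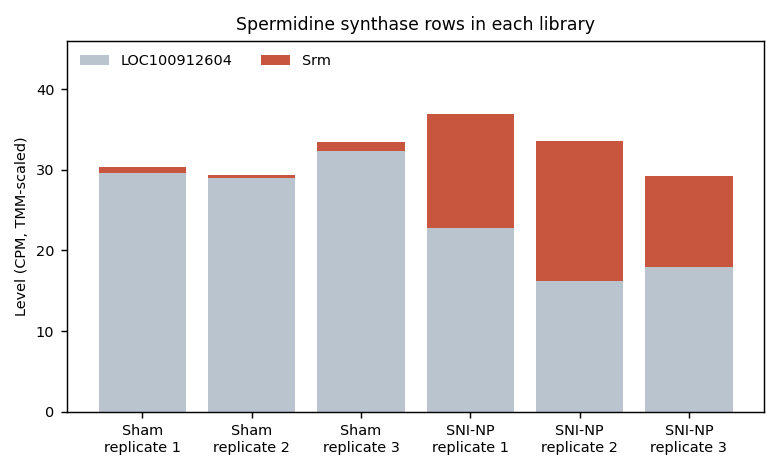
Level of both spermidine synthase rows in each of the 6 libraries, as stacked bars on the vertical axis in CPM scaled by TMM. The red part is *Srm* and the grey part *LOC100912604*; the red part takes 1.23% to 3.35% of the bar in sham rats and 38.2% to 51.6% in SNI-NP rats, while the bar heights overlap between the groups.

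For context, rows annotated as the "-like" form of another named row were collected after the result for *Srm* was seen. There were 115 such pairs with both rows tested, and 34 of them had counts that were not whole. In 20 of these 34 the sum of the pair was whole in all 6 libraries. Of the 115 pairs, 1 had rows whose groups separated in opposite directions, and this was *Srm* with *LOC100912604*, the pair chosen for that difference. In the table, 16 rows carry a description that names an enzyme or antizyme of the set. The other 6 of these, beside the 10 genes described here, were *Sat2*, *Oaz2*, *Oaz3*, *Azin2*, *Satl1* and *RGD1562036*. *Satl1* and *RGD1562036* had no count, and the counts of the other 4 were whole.

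RefSeq places *Srm* on chromosome 5 of the GRCr8 assembly, a later build than the one the reads were mapped to. Promoters of 8 of the 10 genes were found by symbol in the RefSeq set, and *LOC100912604* and *Azin1* had no entry. The 250 bases before the start of *Srm* (GRCr8, chr5:164308752-164309001, plus strand) are shown because the *Srm* row carries the largest difference in the set. The E-box CACGTG, the sequence that Myc and related factors bind, is in capitals.

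Srm: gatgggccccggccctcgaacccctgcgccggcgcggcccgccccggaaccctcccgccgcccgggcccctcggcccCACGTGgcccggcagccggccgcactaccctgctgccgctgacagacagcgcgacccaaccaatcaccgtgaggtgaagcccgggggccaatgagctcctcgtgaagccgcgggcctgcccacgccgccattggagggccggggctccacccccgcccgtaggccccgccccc

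The E-box of *Srm* began 173 bases before the start of the gene. Of the 8 promoters, that of *Oaz1* was the other one with this motif, 234 bases before the start. These 30 bases (GRCr8, chr7:9537207-9537236, minus strand) show it, again in capitals.

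Oaz1: gagtgacgcaaaCACGTGggggcgggactc

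CACGTG reads the same on both strands and was found in 5.79% of the 27457 RefSeq promoters at the same length. The motif TATAA, searched on both strands, was present in the promoters of *Odc1*, *Amd1* and *Oaz1*, where it began between 28 and 32 bases before the start, and in 24.1% of all promoters. CCAAT, also searched on both strands, occurred in *Srm*, 3 times, and in *Oaz1*, and in 34.3% of all promoters. These matches describe the letters and not binding.

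Among the 10 genes, the groups did not overlap for 4. *Srm* and *Odc1* were higher in all SNI-NP rats, and *LOC100912604* and *Amd1* were lower. Of all 14426 genes tested, 10.4% were higher and 8.15% lower without overlap (18.5% in either direction), and nothing is read from the count of 4, because the genes were chosen with this contrast known. The median log2 fold change was 0.09 over the 10 genes and 0.01 over all genes tested. Apart from *Srm* and *LOC100912604*, the fitted log2 fold changes were small, between 0.07 and 0.26 in size.

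Of the synthesis genes, *Odc1* (ENSRNOG00000005424) was at 145.0, 148.0 and 145.9 CPM after sham surgery, against 185.3, 163.2 and 155.8 CPM after SNI. The sham rats lay close together and SNI-NP replicate 1 was the highest. The log2 fold change of *Odc1* was 0.20 (SE 0.10), and 0.12 without SNI-NP replicate 1. That library also had the highest summed level of 5 red cell precursor genes, 2624 CPM against 496.1 to 1201 CPM in sham rats and 1097 and 1315 CPM in the other SNI-NP rats. Its 6 granulocyte precursor genes summed to 167.8 CPM, against 31.4 to 111.8 CPM in sham rats and 82.8 and 121.6 CPM in the other SNI-NP rats. None of these marker genes was at 0 in every library, and their part in the level of *Odc1* was not tested.

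*Amd1* (ENSRNOG00000000585) was at 89.9, 80.3 and 79.9 CPM after sham surgery, against 76.3, 76.9 and 77.4 CPM after SNI. The SNI-NP rats lay just below the lowest sham rat, with a gap of 2.42 CPM and a log2 fold change of -0.12 (SE 0.09), or -0.08 without sham replicate 1. *Sms* (ENSRNOG00000007688) was at 20.8, 16.6 and 19.9 CPM after sham surgery, against 16.8, 17.7 and 15.6 CPM after SNI. These groups overlapped through sham replicate 2, and the log2 fold change of *Sms* was -0.19 (SE 0.14).

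Of the breakdown genes, *Sat1* (ENSRNOG00000003809) was at 96.3, 133.7 and 82.7 CPM after sham surgery, against 131.5, 122.3 and 120.9 CPM after SNI. Sham replicate 2 was the highest of all rats, and the other sham rats were the lowest. The log2 fold change of *Sat1* was 0.26 (SE 0.18), the largest of these 8 genes, and it was 0.48 without sham replicate 2 and 0.09 without sham replicate 3. *Smox* (ENSRNOG00000021255) was at 89.2, 64.4 and 73.8 CPM after sham surgery, against 84.0, 75.5 and 79.8 CPM after SNI, so that the SNI-NP rats lay within the range of the sham rats. *Paox* (ENSRNOG00000018838) was at 26.7, 24.4 and 23.7 CPM after sham surgery, against 27.6, 28.6 and 24.1 CPM after SNI. Its groups overlapped as well, and the log2 fold changes were 0.07 (SE 0.13) for *Smox* and 0.10 (SE 0.12) for *Paox*. For *Paox* it was 0.04 on omitting sham replicate 3 and 0.05 on omitting SNI-NP replicate 2, and for *Smox* it lay between -0.03 and 0.19 on omitting single libraries.

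Both genes that control ornithine decarboxylase overlapped between the groups. *Oaz1* (ENSRNOG00000019459) was at 69.9, 71.7 and 84.2 CPM after sham surgery, against 90.8, 90.0 and 80.9 CPM after SNI, a log2 fold change of 0.21 (SE 0.11). *Azin1* (ENSRNOG00000005333) was at 151.5, 164.2 and 138.6 CPM after sham surgery, against 138.6, 113.6 and 145.4 CPM after SNI, with a log2 fold change of -0.19 (SE 0.13). That value of *Azin1* was -0.09 on omitting SNI-NP replicate 2 and -0.30 on omitting SNI-NP replicate 3. The ratio of *Azin1* to *Oaz1* within a library, on the FPKM scale (fragments per kilobase of gene, scaled to library size), does not depend on the scaling of libraries. It was 0.352, 0.373 and 0.268 after sham surgery, against 0.248, 0.205 and 0.292 after SNI. SNI-NP replicate 3 lay above sham replicate 3, so that these ratios overlapped too. The ratio of *Odc1* to *Oaz1* was 0.700 ± 0.0688 (SD, n = 3) after sham surgery, against 0.687 ± 0.0423 (SD, n = 3) after SNI, a difference smaller than the spread.

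**Figure D2:**
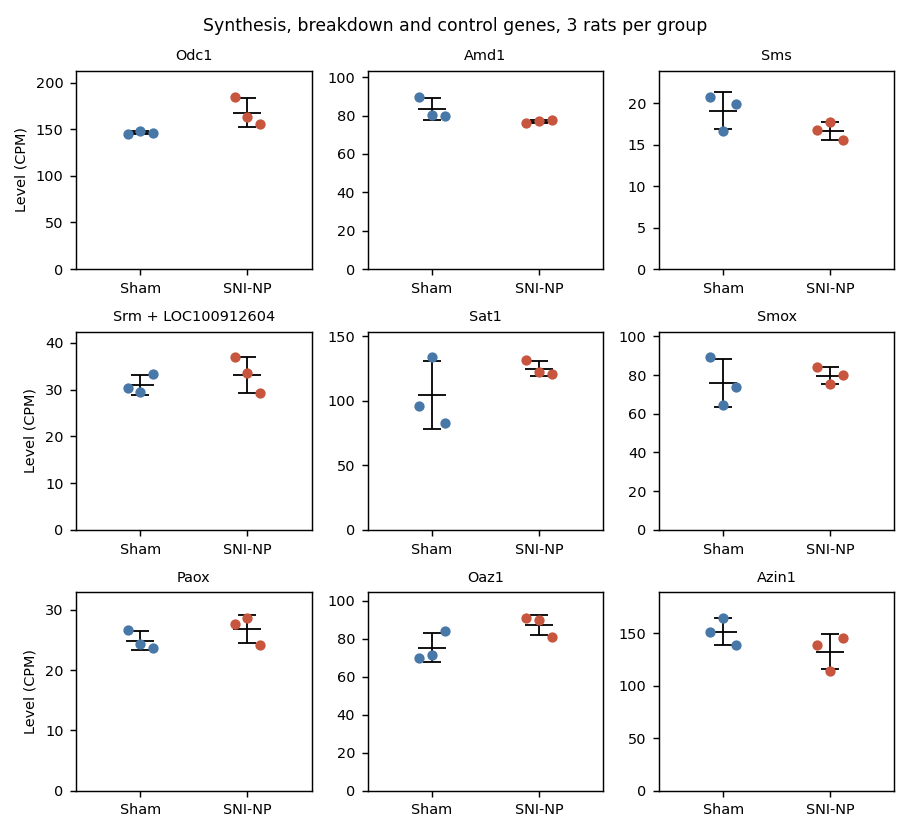
Level in CPM (vertical axes, from 0) of the synthesis, breakdown and control genes in 3 sham libraries (blue) and 3 SNI-NP libraries (red), with *Srm* and *LOC100912604* added together. Points are libraries, and the black bars are the mean and SD of each group; the groups separate for *Odc1* (higher in SNI-NP rats) and *Amd1* (lower).

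Other ratios within a library compared neighbouring steps of the pathway. The summed FPKM of *Srm* and *LOC100912604* was 1.895, 2.305 and 2.187 times that of *Sms* after sham surgery, against 2.904, 2.515 and 2.477 times after SNI. For *Odc1* and *Amd1*, the ratio was 2.70, 3.05 and 3.05 after sham surgery, against 4.05, 3.52 and 3.31 after SNI. Both ratios were higher in all SNI-NP rats. For *Odc1* and *Amd1* this follows from their levels, which separated the groups in opposite directions, so the ratio adds no further result. Nothing is read from either separation, because the genes were chosen with this contrast known. The ratios of *Sat1* to the pair and of *Smox* to *Paox* overlapped between the groups.

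Levels between genes were compared per length, by FPKM over all 6 libraries. *Oaz1* was the highest at 119.1 ± 11.5 FPKM (SD, n = 6), followed by *Sat1* at 98.4 ± 17.9 and *Odc1* at 82.2 ± 6.45 FPKM (SD, n = 6). The ranges of these neighbours overlapped. A clear step followed, since *Odc1* lay above *Smox* (36.6 ± 3.72 FPKM, SD, n = 6) in 6 of 6 libraries without overlap. *Azin1* was at 33.9 ± 4.50 FPKM, *Amd1* at 25.3 ± 1.87 and *LOC100912604* at 19.9 ± 5.56 FPKM (SD, n = 6), each with a range that overlapped that of the next. The last 3 were *Paox* at 16.2 ± 1.20 FPKM, *Sms* at 11.1 ± 1.32 and *Srm* at 6.17 ± 6.32 FPKM (SD, n = 6). *Paox* lay above *Sms* without overlap. The lower end of this order differed between the groups: *LOC100912604* lay above *Paox* in 3 of 3 sham rats and in 1 of 3 SNI-NP rats, and *Sms* lay above *Srm* in 3 of 3 sham rats and in 1 of 3 SNI-NP rats. The sum of the pair was at 26.0 ± 2.13 FPKM (SD, n = 6), next to *Amd1*.

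**Figure D3:**
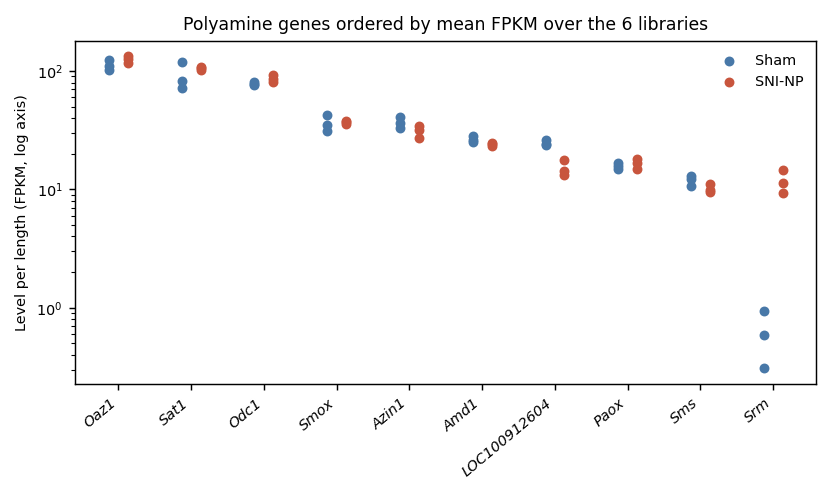
Level per length of the 10 genes in FPKM on a log axis, ordered from left to right by the mean over 6 libraries, with sham rats in blue and SNI-NP rats in red, 1 point per library. The points of *Srm* lie between 0.31 and 0.94 FPKM in sham rats and between 9.31 and 14.58 FPKM in SNI-NP rats, while *LOC100912604* lies lower in SNI-NP rats.

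The 4 genes whose log2 CPM over the 6 libraries was most like that of *Srm* were *Tmem132a*, *Thop1*, *Psmg3* and *Stx5*, with Pearson correlations from 0.986 to 0.993. *Tmem132a* was at 62.8, 61.2 and 63.6 CPM after sham surgery, against 75.8, 78.6 and 74.5 CPM after SNI. Their log2 fold changes were 0.29 for *Tmem132a*, 0.34 for *Thop1*, 0.78 for *Psmg3* and 0.29 for *Stx5*, against 4.29 for *Srm*. For the sum of the pair, the 5 most similar genes were *Lrwd1*, *Nccrp1*, *Calr*, *Ltc4s* and *Nol9*, with correlations from 0.978 to 0.988. *Calr*, which encodes the chaperone calreticulin, was at 612.3, 609.1 and 679.3 CPM after sham surgery, against 716.3, 661.5 and 591.1 CPM after SNI. These correlations describe 6 libraries in 2 groups, picked as the highest of all genes tested.

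The genes around the pathway were tested, using a list of 43 further genes that supply precursors, salvage the methylthio group, move polyamines across membranes or use them. Of these, 37 passed the filter on low counts. *Agmat*, *Gnmt*, *Oaz3*, *Satl1* and *Aoc1* were among those that did not. By edgeR's quasi-likelihood test, 0 of the 37 had an adjusted p-value under 0.05 over all genes tested, and 3 had an unadjusted p-value under 0.05, 1 higher and 2 lower in SNI-NP rats. That is 8.11% of the list, against 10.8% of all 14426 genes tested at this unadjusted threshold (4.91% higher, 5.94% lower) and 0% at the adjusted one. The median log2 fold change of the list was 0.03. DESeq2's Wald test, run without the filter, gave 4 of 42 genes of the list at the unadjusted threshold, against 9.8% of all genes with a p-value, and 1 of 37 at the adjusted threshold, against 1.32% of all genes with an adjusted p-value.

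The hypusine genes gave the smallest p-value. Spermidine is the donor for hypusine, an amino acid that deoxyhypusine synthase (*Dhps*) and deoxyhypusine hydroxylase (*Dohh*) form in the translation factor eIF5A, encoded by *Eif5a* and its relative *Eif5a2*. *Eif5a2* (ENSRNOG00000011859) was at 89.5, 90.2 and 83.5 CPM after sham surgery, against 50.8, 57.0 and 60.2 CPM after SNI. No SNI-NP value reached the lowest sham value. The log2 fold change of *Eif5a2* was -0.65 with SE 0.10 (edgeR, unadjusted p = 3.12e-04, adjusted p = 0.199), and DESeq2 gave an adjusted p of 5.13e-04. Without each library in turn the value lay between -0.74 and -0.58, with unadjusted edgeR p-values from 0.00112 to 0.00219. It was -0.58 without SNI-NP replicate 1. That library had the lowest summed level of 5 neuronal marker genes, 1547 CPM against 2967 to 4414 CPM in the other 5 libraries. *Nefl*, *Tubb3*, *Syt1* and *Rbfox3* were each lowest in this library. *Snap25* was not, at 177.2 CPM there against 129.6 and 132.5 CPM in SNI-NP replicates 2 and 3. The part of neurons in the result for *Eif5a2* was not tested.

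*Eif5a* itself was at 227.7, 237.0 and 265.9 CPM after sham surgery, against 277.8, 310.2 and 279.9 CPM after SNI. Its values were higher in all SNI-NP rats, the opposite order to *Eif5a2*, with a log2 fold change of 0.25 (SE 0.11) that missed the unadjusted threshold (edgeR's model across all genes, unadjusted p = 0.0505, adjusted p = 0.46). DESeq2 put *Eif5a* just under the unadjusted threshold (DESeq2's model across all genes, unadjusted p = 0.0492, adjusted p = 0.435). *Dhps* and *Dohh*, named after their values were seen, had log2 fold changes of 0.25 and 0.24, with adjusted edgeR p-values of 0.488 and 0.587.

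Among the genes of methionine salvage, *Mri1*, whose enzyme acts on the sugar phosphate left after spermidine and spermine are made, was at 22.9, 26.1 and 22.9 CPM after sham surgery, against 28.5, 38.6 and 32.7 CPM after SNI. The groups did not overlap, and the log2 fold change of *Mri1* was 0.47 with SE 0.14 (edgeR, unadjusted p = 0.0126, adjusted p = 0.417). The unadjusted edgeR p passed 0.05 when 3 of the 6 libraries were omitted singly, and was 0.0595 without sham replicate 1, 0.066 without sham replicate 3 and 0.0549 when SNI-NP replicate 3 was omitted. The other abundant gene of this group, *Enoph1*, had a log2 fold change of 0.20 with SE 0.14 (edgeR, adjusted p = 0.584).

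Of the 12 transport genes tested, 1 passed the unadjusted threshold. *Slc7a1*, a carrier of arginine and other cationic amino acids, was at 108.8, 78.4 and 94.8 CPM after sham surgery, against 68.0, 70.6 and 79.0 CPM after SNI. Its groups overlapped slightly, since SNI-NP replicate 3 exceeded sham replicate 2. The log2 fold change of *Slc7a1* was -0.37 with SE 0.14 (edgeR, unadjusted p = 0.0298, adjusted p = 0.437), and the unadjusted p passed 0.05 in 2 of 6 fits without 1 library, namely 0.00647 when sham replicate 2 was omitted and 0.0226 when SNI-NP replicate 3 was. The most abundant transport genes, *Cav1* and *Slc3a2*, had log2 fold changes of 0.21 and 0.15, with adjusted edgeR p-values of 0.61 and 0.563.

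In the other groups of the list 0 genes passed either threshold by edgeR or DESeq2. In precursor and methionine supply, *Mat2a* (log2 fold change -0.01, SE 0.10) and *Oat* (0.03, SE 0.11) were the most abundant. *Azin2*, a second antizyme inhibitor, had a log2 fold change of 0.49 (SE 0.29), and *Oaz2* one of -0.01 (SE 0.16). *Maob* and *Aldh9a1*, of amine and aldehyde oxidation, had 0.13 and 0.12. *Myc*, a known activator of *Odc1*, was at 9.77 ± 1.09 CPM (SD, n = 3) after sham surgery, against 10.4 ± 2.36 CPM (SD, n = 3) after SNI, a log2 fold change of 0.09 with SE 0.21 (edgeR, adjusted p = 0.89), and its partner *Max* had 0.01 (SE 0.09).

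**Figure D4:**
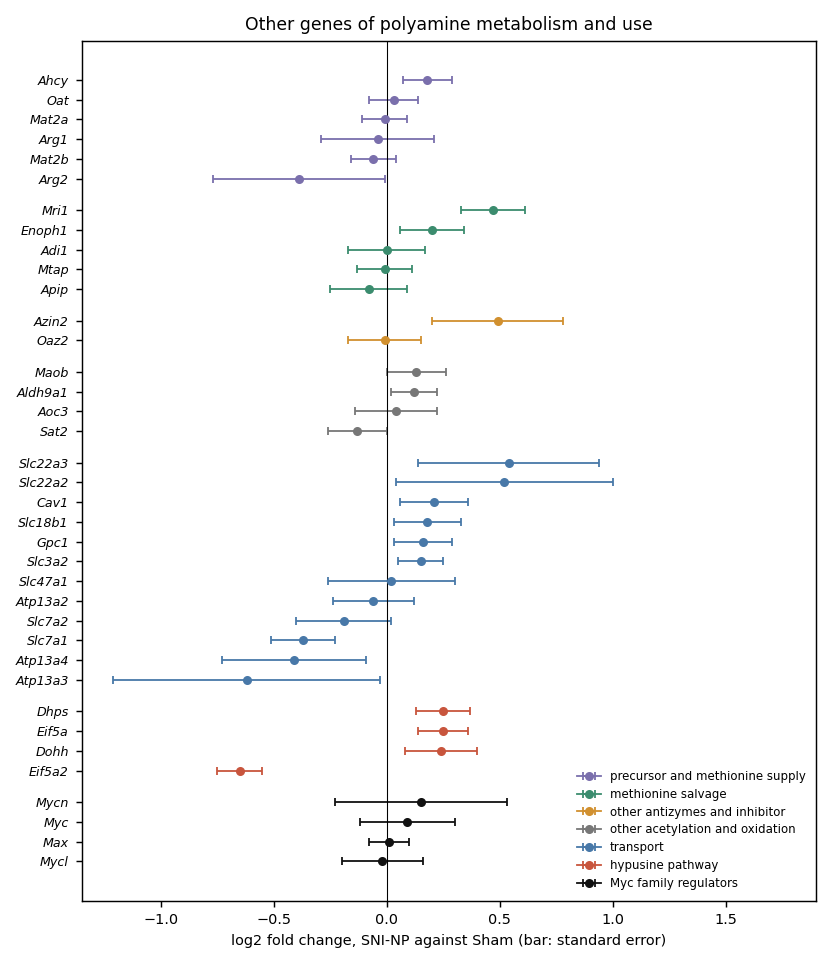
Fitted log2 fold change between SNI-NP and sham rats (horizontal axis) of the 37 further genes tested, grouped by role in colour, with bars of 1 standard error. *Eif5a2* lies farthest from 0 relative to its error, at -0.65, and *Mri1* lies at 0.47; 0 genes passed the adjusted threshold by edgeR.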

How the data were processed

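RNA-seq of spinal cord tissue in 3 sham and 3 SNI-NP libraries was analysed, with groups and replicate numbers from the sample labels. The authors deposited estimated counts per gene, not normalized, and FPKM values. By the paper's account, reads were mapped to the rat release it calls Rat6 and unique sequences alone were kept. The submitters' processing notes name FastQC, STAR and HTSeq without versions. Of the genes with a count, 11.5% had a count that was not whole, which HTSeq in its default use would not give. How counts that are not whole arose if unique sequences alone were kept is not stated either. The annotation release and the use of strand are not given in the sources used here. Rows without a symbol (8) were kept by identifier.

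Estimated counts were rounded, filtered by filterByExpr, scaled by TMM and tested by edgeR 4.0.16 (R 4.3.3, quasi-likelihood, condition as the single term) with Benjamini-Hochberg adjustment over 14426 genes. CPM are unrounded counts over TMM-scaled library sizes. Log2 CPM used a prior count of 2. The pair was fitted as 1 row in place of both. On simulated data of 14426 genes with 200 changed by 2 on the log2 scale, 81% were recovered and 6.9% of calls were unchanged genes. The log2 fold changes of the 37 further genes tested lay between -0.65 and 0.54, and recovery at that size was not simulated. DESeq2 1.42.0 was an alternative. The genes described and the lists were chosen with earlier results of these data known. Genes named from the list of 43 were those with an unadjusted p under 0.05 and the 2 most abundant of each group. The genes most like *Srm* and most like the pair were the 5 with the highest Pearson correlation in each case, and some genes that these rules and lists hold are not reported here. The E-box search used Python 3.11.15.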

Additional observations from a re-analysis of the deposited data

How the results depend on the processing

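The log2 fold change of *Srm* ranged from 3.95 to 4.71 on omitting single libraries and from 4.10 to 4.31 under the other alternatives. With at least 10 counts required in every library *Srm* was removed. The summed pair stayed between 0.02 and 0.15 in all alternatives. The sign of the other genes of the set, though not the size, was kept in 15 of 15 alternatives, except for *Smox*, which was at -0.03 without sham replicate 2. The number of genes with an unadjusted p-value under 0.05 was 1565, and from 908 to 2134 across fits that left out 1 library: omitting sham replicate 1 gave 908, sham replicate 3 gave 1019 and SNI-NP replicate 3 gave 917. Of the 1565 genes, 708 were higher and 857 lower, against 470 and 1128 with library size only, 448 and 871 with the replicate block, 519 and 1388 on omitting SNI-NP replicate 1, and 754 and 631 on omitting SNI-NP replicate 2. For the list of further polyamine genes the count of 3 lay between 1 and 5: it was 1 on omitting sham replicate 1 or 3, 5 on omitting sham replicate 2, and 2 on omitting SNI-NP replicate 2 or 3. The cause was not tested. Genes with an adjusted p-value under 0.05 numbered 0 by edgeR, 2 on omitting sham replicate 2, 222 on omitting SNI-NP replicate 1 and 194 by DESeq2. Same-numbered rats correlated at 0.21, -0.14 and 0.05 in their deviations from the group means, so the numbers were not taken as pairs. With the replicate block 1319 genes and 3 genes of the list passed, *Srm* was at 4.31 and the sum of the pair at 0.09. With 3 libraries per group and under 20 counts of *Srm* in each sham library, its fold is less certain than that of the pair.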
